A study of Mus musculus with 100 samples.

Results

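The genes examined as loci were those of the NCoR corepressor complex and of several histone deacetylases, 9 in all: Ncor1, Hdac3, Tbl1xr1, Gps2, Hdac1, Hdac2, Hdac4, Hdac7 and Hdac9. They were chosen by name. A region belonged to one of them when the deposited tables listed that gene as the one with the nearest transcription start site (TSS), which gave 1019 of 610301 regions over 15 tables and 9 of 18524 listed genes. The assignment rests on distance alone, and p300 regions listed for Tbl1xr1 lay up to 803 kb from its start.

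Mouse cells were profiled by chromatin immunoprecipitation and sequencing (ChIP-seq), with 100 samples in 50 groups of 2 biological replicates, of which 70 libraries in 35 groups had counts and 30 sequenced inputs were not analysed here. Bone marrow-derived macrophages (BMDMs), grown from the marrow of adult C57BL/6 mice, received vehicle (Veh) or Kdo2 lipid A (KLA), which stimulates the endotoxin receptor TLR4, for 6 h in the samples whose labels state it. In wild-type (WT) BMDMs the antibodies were against NCoR, HDAC3, PGC1β (a coactivator), ERK1 (a kinase), p300 (an acetyltransferase), p65 (of NFκB), Fosl2 (of AP-1) and PU.1 (a lineage factor). The p300 controls are titled Veh but labelled as KLA at 0 h. Those of NCoR, HDAC3, p65, Fosl2 and PU.1 are labelled as Veh for 6 h. NCoR and PGC1β were also profiled after KLA with an ERK inhibitor (ERKi). Acetylation of lysine 27 of histone H3 (H3K27ac) marks active regulatory DNA and was profiled in 3 experiments. In the first, NCoR flox/flox BMDMs (named WT there) and NCoR flox/flox, LysMCre BMDMs (NKO) were given Veh or KLA. In the second, WT BMDMs in DMSO were given Veh or KLA, and others received KLA with RGFP966, an inhibitor of HDAC3. In the third, Pgc1b flox BMDMs and Pgc1b flox Cre BMDMs, which carry the same floxed alleles and LysMCre, were given Veh or KLA. LysMCre is driven by a myeloid promoter, so deletion depends on that promoter in each cell. ERK1 and p300 were also profiled in wild-type C57BL/6 bone marrow cells at day 0 and day 4 of differentiation toward osteoclasts. The labels of the ERK1 libraries at day 0 and of the first at day 4 also carry NCoRWT.

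NCoR is a scaffold protein that nuclear receptors and other transcription factors bring to DNA. It carries HDAC3, whose deacetylase activity depends on binding to a corepressor such as NCoR, together with TBLR1 (the product of Tbl1xr1), which helps in the exchange of corepressors for coactivators, and the small subunit GPS2. HDAC1 and HDAC2 are the class I enzymes of other corepressor complexes. HDAC4, HDAC7 and HDAC9 are class IIa enzymes that shuttle between nucleus and cytoplasm and have little activity of their own on acetylated histones, but they bind HDAC3 and NCoR. In macrophages the complex is known both for holding inflammatory genes silent and, in some settings, for their activation.

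Libraries held 4.30 to 21.5 M tags by their headers, and 2.79% to 52.8% of these lay in the listed regions. Levels below are tags per 10 M of a library's total, with n = 2 libraries per group, and differences are log2 fold changes from edgeR's quasi-likelihood fit over all regions of a table, with their SE and Benjamini-Hochberg adjusted p. A region was called higher or lower at an adjusted p under 0.05 and more than a 2-fold change, and the strongest gain or loss below is the one with the lowest p. Using edgeR's TMM scaling (a trimmed mean of log ratios) in place of library totals shifted the median difference of all regions by more than 0.1 in 22 of 25 comparisons, by -1.61 to 1.16, and counts that depended on it are given both ways. Of the macrophage markers, 5 of 8 had an H3K27ac region at the TSS in the WT and NKO table and 8 of 8 in each of the other H3K27ac tables, while the T cell, B cell, erythroid and stromal markers had none and the osteoclast markers 1 or 2 of 6. One of 4 neutrophil markers had such a region in the RGFP966 and Pgc1b tables, at 26.3 to 79.1 and 33.6 to 50 tags per 10 M per kb summed, against 2553 to 3475 and 1700 to 3145 for the macrophage markers. Its part in the results was not tested. In these bulk samples, fewer cells with a bound site and less binding per cell cannot be told apart.

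The sequences that the results on binding turn on are shown first, as the 200 bases around the region's centre (mm10, plus strand, GRCm38 reference), with motif matches in capitals. The first is the intron 3 site of Hdac9 where NCoR rose with the lowest p, chr12:34808223-34808422. Its capitals mark an interferon response element and, toward the end, an AP-1 site. The second is the intergenic site at -652.5 kb from Tbl1xr1 where HDAC3 rose with the lowest p, chr3:21424054-21424253, with 2 interferon response elements. The third is the intron 2 site of Hdac9 with the strongest p300 gain, chr12:34844932-34845131, with an NFκB site. The fourth is the site at -18.2 kb from Tbl1xr1 where NCoR fell with the lowest p, chr3:22058335-22058534, with a single AGGTCA hexamer, named nuclear receptor element below. The fifth lies in the window at -3.4 kb from Tbl1xr1 where H3K27ac differed most clearly with RGFP966. It is centred on the NCoR region nearest that window's centre, chr3:22073177-22073376. None of the motifs was found in these 200 bases, and the rest of the 1000 bp window was not searched. None was found either at the strongest HDAC3 loss, chr3:21805808-21806007, which is not printed.
Hdac9 intron 3: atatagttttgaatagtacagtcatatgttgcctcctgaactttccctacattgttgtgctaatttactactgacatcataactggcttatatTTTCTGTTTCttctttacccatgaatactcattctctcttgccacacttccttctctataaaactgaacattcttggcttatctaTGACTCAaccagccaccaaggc
Tbl1xr1 -652.5 kb: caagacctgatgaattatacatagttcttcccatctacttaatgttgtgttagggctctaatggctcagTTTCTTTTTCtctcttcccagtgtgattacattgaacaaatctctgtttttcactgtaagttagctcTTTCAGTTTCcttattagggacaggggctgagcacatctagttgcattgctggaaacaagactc
Hdac9 intron 2: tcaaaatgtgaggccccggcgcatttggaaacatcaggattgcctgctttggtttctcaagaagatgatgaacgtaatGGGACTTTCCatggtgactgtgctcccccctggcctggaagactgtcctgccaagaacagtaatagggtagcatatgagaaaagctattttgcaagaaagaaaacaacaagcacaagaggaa
Tbl1xr1 -18.2 kb: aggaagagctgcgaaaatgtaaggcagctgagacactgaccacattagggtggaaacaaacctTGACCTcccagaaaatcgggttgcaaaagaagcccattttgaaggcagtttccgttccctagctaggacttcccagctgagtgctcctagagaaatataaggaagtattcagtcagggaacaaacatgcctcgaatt
Tbl1xr1 -3.4 kb: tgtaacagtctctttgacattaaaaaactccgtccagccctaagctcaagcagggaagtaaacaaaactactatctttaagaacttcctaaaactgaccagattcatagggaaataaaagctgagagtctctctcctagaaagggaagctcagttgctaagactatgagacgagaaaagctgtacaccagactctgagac

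Motifs were searched on both strands as TGANTCA (AP-1), GAGGAAG (PU.1), CCGGAAG (ETS), GGGCGG (GC box), AGGTCA (nuclear receptor element), GAAA repeated after any 2 bases (interferon response element), TGAC joined to GTCA (cyclic AMP response element), and the NFκB consensus. The nuclear receptor element is thus a single hexamer, and paired copies of it were not searched for. Among the 17 NCoR regions of the members that rose with KLA, 4 held an NFκB site, 3 an interferon response element, 2 an AP-1 site, 1 a PU.1 site and 0 a nuclear receptor element. Among the 28 that fell, 9 held a PU.1 site, 5 a nuclear receptor element, 2 an NFκB site, 1 an AP-1 site and 0 an interferon response element. Of all 55038 NCoR windows of this length, 7.39% held the NFκB site, 7.03% the interferon element, 20.9% AP-1, 24.4% PU.1 and 15.8% the nuclear receptor element. Of all NCoR windows that rose, 12.8% held the NFκB site, 13.7% the interferon element, 23.9% AP-1, 16% PU.1 and 12.5% the nuclear receptor element, and of all that fell 3.97%, 2.56%, 14.5%, 32.4% and 23%. The member counts are small, and the matches describe letters in these windows only.

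For the promoters of Ncor1 and Tbl1xr1, whose H3K27ac is described further on, the RefSeq promoter (250 bases before to 50 after the start, GRCm38) is printed in the gene's direction with motif matches in capitals. Ncor1 is on the minus strand, chr11:62457283-62457582, and its capitals mark an NFκB site, a GC box, an ETS site and a second GC box in that order. Tbl1xr1 is on the plus strand, chr3:22076402-22076701, and its capitals mark a GC box and a PU.1 site. Of 32851 RefSeq promoters, 35.7% held a GC box, 8.86% an ETS site, 8.46% an NFκB site and 13.6% a PU.1 site.
Ncor1 promoter: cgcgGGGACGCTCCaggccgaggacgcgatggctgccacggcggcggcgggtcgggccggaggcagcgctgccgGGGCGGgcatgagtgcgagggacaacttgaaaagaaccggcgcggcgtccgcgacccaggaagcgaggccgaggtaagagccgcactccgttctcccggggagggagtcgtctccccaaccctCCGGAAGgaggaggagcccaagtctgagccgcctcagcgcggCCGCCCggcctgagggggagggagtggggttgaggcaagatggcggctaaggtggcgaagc
Tbl1xr1 promoter: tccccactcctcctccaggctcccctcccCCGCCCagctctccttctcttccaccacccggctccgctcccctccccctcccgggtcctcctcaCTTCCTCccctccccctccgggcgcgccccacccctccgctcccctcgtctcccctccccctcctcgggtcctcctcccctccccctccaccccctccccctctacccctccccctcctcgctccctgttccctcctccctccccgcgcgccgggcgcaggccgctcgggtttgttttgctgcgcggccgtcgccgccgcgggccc

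The first question was where NCoR and HDAC3 sat at the genes of their own complex. NCoR had 98 regions at 7 of the 9 genes. Tbl1xr1 had 45 of them, Hdac9 26, Hdac4 17 and Hdac7 7, whereas Ncor1, Gps2 and Hdac1 had 1 each, at their promoters. No NCoR region was listed for Hdac3 or Hdac2. Only 9 of the 98 lay within 2 kb of a TSS, and 46 lay beyond 100 kb. HDAC3 had 81 regions, 40 at Tbl1xr1, 21 at Hdac9, 15 at Hdac4, 3 at Hdac7 and 1 each at Gps2 and Hdac1. None was listed for Ncor1, Hdac3 or Hdac2. When a region was instead given to a gene whose body it overlapped within 2 kb, Hdac3 held 1 NCoR and 1 HDAC3 region and Tbl1xr1 kept 6 NCoR regions of its 45.

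Per kb of region, NCoR at the TSS with Veh was 288 and 380 tags per 10 M per kb at Tbl1xr1, 302 and 364 at Hdac9, and 248 and 402 at Hdac7. These 3 overlapped one another. The Hdac7 region lay in intron 1, at -1936 bp from an internal start, and the HDAC3 region of Hdac7 below lay at the same place. Ncor1 stood below them at 142 and 135, followed by Hdac4 at 87.9 and 148, Hdac1 at 120 and 87.9 and Gps2 at 78.2 and 103, and in this lower set each gene overlapped the next in order. HDAC3 at the TSS with Veh was highest at Tbl1xr1, with 414 and 383 tags per 10 M per kb. It then fell without overlap through Hdac7 (344 and 370), Gps2 (204 and 198), Hdac9 (193 and 177) and Hdac1 (115 and 101).

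KLA changed NCoR at 45 of the 98 regions, 17 higher and 28 lower, against 23.4% of all NCoR regions higher and 16.7% lower. The median log2 difference was -0.42 over the members and 0.10 over all regions. The gains lay at Hdac9 (10 of 26 regions), Tbl1xr1 (6 of 45) and Hdac4 (1 of 17). The losses lay at Tbl1xr1 (11), Hdac4 (9), Hdac9 (7) and Hdac7 (1). The promoters of Ncor1, Gps2 and Hdac1 were not called. Of the 9 TSS regions 2 fell (at Hdac7 and Hdac9) and 0 rose, and the shares over all NCoR regions at a TSS were not counted. Without KLA replicate 1 the call count was 18, and without KLA replicate 2 it was 19.

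HDAC3 rose at 15 and fell at 17 of its 81 regions with KLA, against 27.5% and 11.3% of all HDAC3 regions. With TMM scaling the members' counts were 15 and 24, against 24.3% and 16.3%. HDAC3 KLA replicates 1 and 2 held 17.1 and 5.69 M tags, with 31.2% and 46.5% of them in the listed regions. The part of this in the calls was not tested. Hdac9 had 9 gains of 21 regions and Tbl1xr1 6 of 40, while Hdac4 had 7 losses of 15, Tbl1xr1 6, Hdac9 3 and Hdac7 1. Without HDAC3 Veh replicate 2 the count of calls was 12, and without Veh replicate 1 it was 16.

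**Figure D1:**
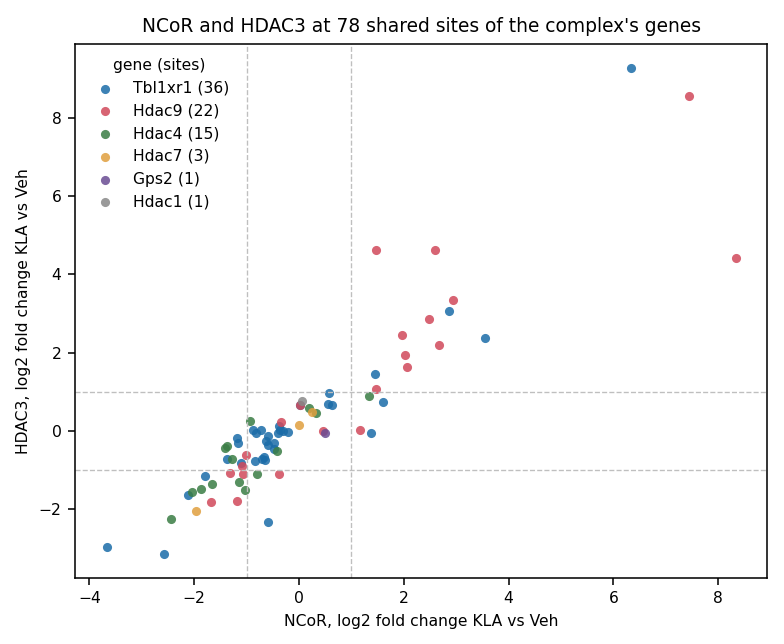
Log2 fold change with KLA of NCoR (horizontal axis) and HDAC3 (vertical axis) at the 78 sites of the complex's genes where both had a region, 1 point per site, coloured by gene, with dashed lines at 2-fold. The points follow a rising line (r = 0.91), Hdac9 and distal Tbl1xr1 sites hold the upper right and Tbl1xr1 and Hdac4 sites the lower left. Points at the far right rest on groups at or near 0 tags, where the fitted value depends on the prior count.

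NCoR and HDAC3 were set side by side at sites whose centres lay within 500 bp. Of the 17 NCoR-gained sites, 15 had an HDAC3 region, of which 13 were called higher and 0 lower. Over all NCoR-gained regions with HDAC3, 86.3% were called higher for HDAC3. Of the 28 NCoR-lost sites, 22 had an HDAC3 region, of which 0 were higher and 12 lower, against 62.0% lower over all such regions. At the 53 sites with no NCoR call, 41 had an HDAC3 region, with 1 higher and 5 lower, against 10.6% and 3.35% over all such regions. Across the 78 shared sites the correlation of the log2 differences was 0.91, and it was 0.89 over the 75 sites with more than 3 tags in every group. Over all 44266 shared sites it was 0.88. The points share their libraries, and sites near the same gene are not independent.

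Hdac9, a class IIa deacetylase gene that spans 870 kb, held the clearest gain. At chr12:34808218-34808426 in intron 3, +108.8 kb from the TSS, NCoR was 51.4 and 22.4 with Veh and 239 and 232 with KLA. The groups were far apart, with a log2 difference of 2.67 (SE 0.31, adjusted p = 0.000171). HDAC3 at the same site was 56.0 and 45.3 with Veh and 204 and 262 with KLA. These did not overlap either, with a difference of 2.19 (SE 0.37, adjusted p = 6.84e-08). Without HDAC3 Veh replicate 2 this difference was 2.05 with an adjusted p of 0.0948.

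Every other factor with a region at this Hdac9 site had higher values in both KLA libraries than in both Veh libraries, and all but Fosl2 were called by totals. p65 was 14.9 and 22.4 with Veh and 180 and 181 with KLA, a difference of 3.28 (adjusted p = 6.61e-06). p300 was 48.3 and 34.8 against 231 and 245, a difference of 2.51 (adjusted p = 2.04e-08). PU.1 was 31.5 and 38.0 against 84.4 and 108, a difference of 1.48 (adjusted p = 9.87e-13). PU.1 is the macrophage lineage factor, and this was 1 of only 2 member regions where it was called higher. PGC1β was 18.8 and 10.7 with Veh and 64.4 and 44 with KLA, a difference of 1.87 (adjusted p = 0.0028). ERK1 was 14.2 and 9.25 against 65.2 and 32.7 (2.08, adjusted p = 0.0462), a call lost with TMM scaling. Fosl2 was 56.4 and 33.6 against 97.8 and 256, and its difference of 1.99 did not pass by totals (adjusted p = 0.0576) and was called with TMM scaling (1.98). The site lies in the sequence with the interferon element and the AP-1 site printed above. H3K27ac in the WT and NKO libraries was 1.89 to 4.42 tags per 10 M there and was not tested.

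A second Hdac9 site, chr12:34489777-34489999 in intron 4, lies +39.0 kb from the nearest of the starts listed for the gene. NCoR was 10.8 and 14.1 with Veh and 99.6 and 92.0 with KLA there, a difference of 2.93 (SE 0.36, adjusted p = 0.000214). HDAC3 rose from 8.73 and 12.2 to 76.2 and 146 (3.35, adjusted p = 6.85e-12), again with no overlap. PGC1β in the DMSO experiment was 3.25 and 1.46 with Veh and 105 and 52.1 with KLA, with a difference of 4.83 (SE 0.69, adjusted p = 2.49e-05). This was the strongest PGC1β gain among the members in that experiment. ERK1 was 0 and 9.25 with Veh and 63.9 and 28.6 with KLA. It was called higher (3.15, adjusted p = 0.0402), but not with TMM scaling and not without KLA replicate 1 (adjusted p = 0.331) or Veh replicate 1 (adjusted p = 0.0598).

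At the intron 2 site of Hdac9 with the NFκB match, chr12:34844923-34845139 (+72.1 kb), binding with Veh was near 0. p300, the acetyltransferase that writes H3K27ac, was 1.88 and 2.63 with Veh and 154 and 157 with KLA, a difference of 6.07 (SE 0.34, adjusted p = 6.95e-10). NCoR was 0 and 0 with Veh and 35.6 and 38.0 with KLA. HDAC3 was 0 and 3.32 against 34.6 and 49.2, and p65 was 5.25 and 0 against 66.1 and 66.4. Every KLA library at this site was above every Veh library for these 4 antibodies.

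The far upstream site of Tbl1xr1, -652.5 kb, also had next to no signal with Veh. HDAC3 at chr3:21424037-21424270 was 0 and 0 with Veh and 62.1 and 49.2 with KLA. This is at least 62.5-fold higher, taking 3 tags over the Veh group as the floor (adjusted p = 4.14e-16). Like any region with 0 tags in a group, it passed the count minimum through the other group alone. It was also named for its lowest p, so its values describe the site and are no independent test of it. NCoR was 1.19 and 0 against 59.9 and 54.0. p65 held 2 tags over both Veh libraries and 403 with KLA, a ratio of 151 with a 95% counting interval of 41.5 to 1250. p300 was 0.627 and 4.6 with Veh and 175 and 133 with KLA, a difference of 5.87. For p300, NCoR and HDAC3 alike, no Veh library came near a KLA library. Fosl2 was 0 and 0 against 48.9 and 131, at least 57.4-fold higher over the same kind of floor. That call was lost without Veh replicate 1 (adjusted p = 0.0556) or Veh replicate 2 (adjusted p = 0.0750).

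**Figure D2:**
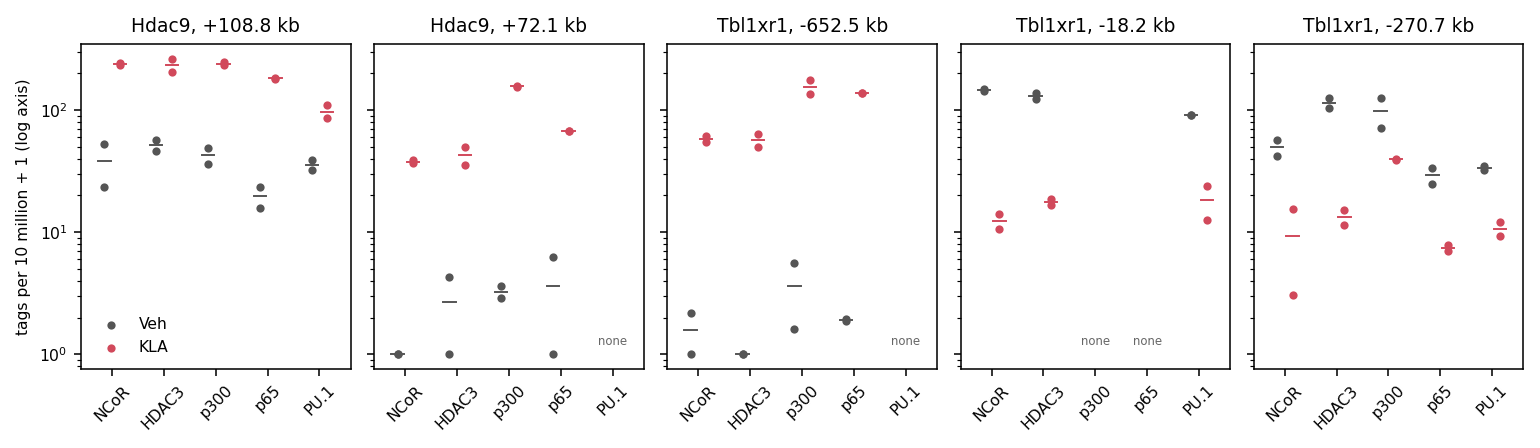
Tags per 10 M plus 1 (log axis) of 5 antibodies at 5 sites of Hdac9 and Tbl1xr1, 1 point per library with Veh in grey and KLA in red, lines at the group means, and "none" where the antibody had no region. KLA points lie above Veh at the 3 gained sites (Hdac9 +108.8 and +72.1 kb, Tbl1xr1 -652.5 kb) and below at the 2 lost sites (Tbl1xr1 -18.2 and -270.7 kb).

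The losses were clearest at Tbl1xr1, the gene of the exchange subunit TBLR1. At chr3:22058334-22058534, -18.2 kb from the TSS, NCoR was 142 and 147 with Veh and 13.0 and 9.68 with KLA, a difference of -3.67 (SE 0.32, adjusted p = 4.87e-05). HDAC3 went from 121 and 137 to 15.8 and 17.6 (-2.97, SE 0.43, adjusted p = 2.12e-10). PU.1 there fell from 89.5 and 90.2 to 22.9 and 11.5 (-2.39, adjusted p = 2.29e-19). The groups were apart for all 3 antibodies. PGC1β was 12.3 and 25.6 with Veh and 4.37 and 8.58 with KLA, and its difference of -1.47 did not pass (adjusted p = 0.0776). No p300, p65 or H3K27ac region was listed at this site.

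At -270.7 kb, chr3:21805773-21806042, HDAC3 was 103 and 124 with Veh and 14.1 and 10.5 with KLA, its strongest loss among the members (-3.14, SE 0.45, adjusted p = 1.16e-10). NCoR was 56.2 and 41.2 against 14.6 and 2.08, a difference of -2.58 (adjusted p = 0.00871). p300 fell from 124 and 69.7 to 38.9 and 37.8, a difference of -1.34. p65 was 23.6 and 32.6 with Veh and 6.01 and 6.84 with KLA here, a difference of -2.11 (adjusted p = 0.00554). Without p65 KLA replicate 1 or 2 that adjusted p was 0.118 or 0.0968.

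Hdac4, the class IIa gene with 9 of its 17 NCoR regions lower, showed the same pattern at its strongest upstream site. At chr1:92216289-92216561 (-36.1 kb) NCoR was 216 and 273 with Veh and 50.2 and 39.4 with KLA, a difference of -2.45 (SE 0.24, adjusted p = 7.93e-05). HDAC3 was 253 and 234 against 45.1 and 59.7, a difference of -2.25 (SE 0.39, adjusted p = 8.06e-08). Neither pair of groups overlapped. p300 was 152 and 108 with Veh and 71.1 and 57.3 with KLA (-1.02). At the Hdac4 intron 3 site chr1:92034389-92034619 (+145.8 kb) NCoR fell from 137 and 146 to 38.9 and 30.4 (-2.03) and HDAC3 from 168 and 175 to 53.9 and 63.2 (-1.57). At Hdac7 an intron 1 region, chr15:97816672-97816927, lay at -1.9 kb from an internal start, the nearest of those listed for the gene. NCoR there fell from 63.3 and 102 to 23.5 and 18.7 (-1.98, adjusted p = 0.00187). HDAC3 there fell from 69.8 and 75.2 to 20.5 and 12.3 (-2.05, adjusted p = 4.64e-05).

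NCoR was not called at the promoters of Ncor1, Gps2, Hdac1 or Tbl1xr1, and no NCoR region was listed for Hdac3. NCoR at the Ncor1 promoter, chr11:62457276-62457486, was 29.9 and 28.2 with Veh and 11.3 and 22.1 with KLA, and the difference of -0.78 did not pass (adjusted p = 0.211). At the Gps2 promoter NCoR was 21.5 and 28.2 against 33.2 and 36.7 (0.49, adjusted p = 0.345). At the Hdac1 promoter NCoR was 37.0 and 27.1 against 38.9 and 28.4 (0.06, adjusted p = 0.909). HDAC3 differed by -0.05 at Gps2 (adjusted p = 0.949). Per kb it was 204 and 198 with Veh and 119 and 297 with KLA there, so the KLA libraries lay on either side of Veh. At Hdac1 HDAC3 differed by 0.77 (adjusted p = 0.139), from 115 and 101 to 152 and 222 per kb. At the Tbl1xr1 promoter, NCoR was 81.3 and 107 with Veh and 68.0 and 38.7 with KLA (-0.83, adjusted p = 0.0602). One of the HDAC3 regions there, chr3:22076591-22076824, fell from 105 and 113 to 45.1 and 63.2 (-1.04, adjusted p = 0.0178). This last region was picked out after its values were seen.

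The other factors differed in direction. p300 rose at 51 and fell at 28 of its 136 regions, against 42.1% and 12.9% of all p300 regions, and with TMM scaling it rose at 39 and fell at 41, against 32.7% and 23.9%. Of the 54 p300 regions at Hdac9, 35 rose and 2 fell. Tbl1xr1 had 13 higher and 18 lower of 56, and Hdac4 2 higher and 7 lower of 20. p65 rose at 40 and fell at 3 of 87, against 57% and 5.43%, but with TMM scaling it rose at 15 and fell at 22, against 27.6% and 21.3%. Its gains lay at Hdac9 (18 of 29 regions), Tbl1xr1 (15 of 36), Hdac7 (4 of 4) and Hdac4 (3 of 15). Without p65 KLA replicate 1 or 2 the p65 count was 15 or 11.

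PU.1 was called lower at 43 and higher at 2 of 84 member regions, against 21.7% lower and 4.53% higher over all PU.1 regions. With TMM scaling 19 were lower and 2 higher, against 10.6% and 9.13%. The losses lay at Tbl1xr1 (24 of 42), Hdac4 (9 of 11), Hdac9 (7 of 18) and Hdac7 (3 of 8). The strongest was in Hdac9 intron 3 at chr12:34787476-34787687 (+129.5 kb), where PU.1 was 167 and 162 with Veh and 22.9 and 36.3 with KLA (-2.47, SE 0.16, adjusted p = 1.54e-30). NCoR at that site fell from 62.1 and 64.7 to 18.6 and 20.8 (-1.68), and HDAC3 from 80.7 and 78.0 to 19.9 and 26.3 (-1.82). All KLA libraries were below all Veh libraries there. The strongest PU.1 gain was in Hdac7 intron 1, chr15:97837727-97837928, from 26.9 and 20.5 to 85.1 and 77.7 (1.76, SE 0.20, adjusted p = 7.05e-14). p65 at that Hdac7 site was 5.25 and 2.80 with Veh and 31.4 and 36.9 with KLA.

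PGC1β, a coactivator of nuclear receptors, was called higher at 10 and lower at 15 of 83 member regions, against 16.4% and 6.35% of all its regions. Tbl1xr1 had 2 higher and 10 lower of 32, and Hdac9 4 higher and 3 lower of 24. Without PGC1β Veh replicate 1 or 2 the count was 9 or 10. Downstream of Hdac2, which had no NCoR or HDAC3 region, PGC1β at chr10:37014338-37014553 (+39.9 kb) rose from 5.29 and 5.11 to 31.7 and 44 (2.86, SE 0.49, adjusted p = 0.000379), with no overlap. The strongest PGC1β loss, at chr3:22152856-22153066 (+76.3 kb, intron 2 of Tbl1xr1), was 2 tags with KLA against 101 with Veh over both libraries, a ratio of 0.0286 with a 95% counting interval of 0.00342 to 0.106.

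In the separate DMSO experiment PGC1β was called higher at 10 and lower at 2 of 81 regions, against 16.4% and 1.23%, and with TMM scaling at 6 and 3, against 8.71% and 2.89%. Without DMSO Veh replicate 1 or 2 the count was 6 or 7. The Hdac2 site was again higher there with KLA, 109 and 29.8 against 9.75 and 8.74 (2.85). This call was lost without KLA replicate 1 (adjusted p = 0.172) or Veh replicate 1 (adjusted p = 0.0591).

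ERK1 was called higher at 2 and lower at 4 of 40 regions, against 10.3% and 2.53%, and with TMM scaling at 0 and 4, against 8.11% and 3.93%. Both gains were at Hdac9. Without ERK1 KLA replicate 1 or 2 the count was 1 or 2, and without Veh replicate 1 it was 3. Fosl2 was called higher at 4 and lower at 7 of 59 regions, against 11.4% and 4.19%, and with TMM at 5 and 12, against 19% and 9.68%. Without either Fosl2 Veh library the count was 0, and without KLA replicate 1 or 2 it was 22 or 34. Its strongest loss was in Tbl1xr1 intron 1, chr3:22090392-22090602, from 40.9 and 25.2 with Veh to 0 and 0, at least 13.7-fold lower over a floor of 3 tags. This too was not called without Veh replicate 1 (adjusted p = 0.793) or 2 (adjusted p = 0.510).

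**Figure D3:**
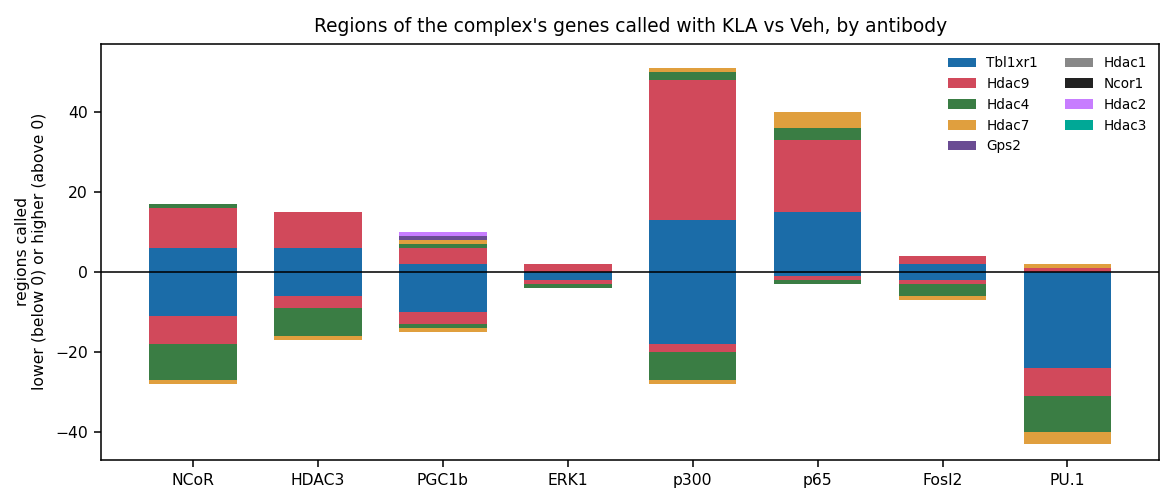
Number of regions of the complex's genes called higher (above 0) or lower (below 0) with KLA, by antibody on the horizontal axis and stacked by gene. PU.1 has 43 lower and 2 higher, p65 40 higher and 3 lower, and p300 51 higher, of which 35 are at Hdac9. The 40 for p65 became 15 and the 43 for PU.1 became 19 with TMM scaling.

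At the 17 NCoR-gained member sites, p300 was called higher at 12 of 15 sites with a p300 region, p65 at 13 of 14, PGC1β at 5 of 6 and Fosl2 at 4 of 5. Over all NCoR-gained regions shared with the factor these shares were 87.2%, 94.1%, 74.3% and 53.6%. At the 28 NCoR-lost sites, p300 was lower at 12 and higher at 1 of 24, PU.1 lower at 12 of 20, PGC1β lower at 6 of 20, and p65 lower at 2 and higher at 1 of 21. Over all NCoR-lost regions shared with the factor the shares lower were 43.1% for p300, 53.7% for PU.1, 24.4% for PGC1β and 16.5% for p65. Across sites the correlation of the log2 difference of NCoR with that of another factor was 0.81 for p300 (82 sites), 0.84 for p65 (71), 0.79 for PU.1 (58), 0.73 for PGC1β (59), 0.87 for Fosl2 (55) and 0.67 for ERK1 (38). Over all shared sites the values were 0.76, 0.73, 0.76, 0.75, 0.80 and 0.68 in that order. The sites in each set share the libraries and are clustered at the same 4 genes.

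The ERK inhibitor addressed whether NCoR and PGC1β at these loci with KLA depended on ERK. The NCoR ERKi libraries carry another date code in their labels than the NCoR KLA libraries, so the inhibitor and that code cannot be told apart. NCoR with KLA was called lower with ERKi at 58 and higher at 2 of 103 member regions, against 48.6% and 0.634% of all regions. With TMM scaling the counts were 7 and 3, against 3.38% and 3.45%. The 58 were 35 of 49 at Tbl1xr1, 14 of 27 at Hdac9, 5 of 17 at Hdac4 and 4 of 7 at Hdac7. Without NCoR KLA replicate 1 or 2 the count was 30 or 31. The ERKi libraries had 15.8% and 15% of their tags in the regions, against 34.2% and 33.3% for KLA, and the median difference over all regions was -1.20. The part of this in the losses was not tested.

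The strongest of these losses, at chr3:21936004-21936243 (-140.5 kb from Tbl1xr1), was from 175 and 169 with KLA to 22 and 40.5 with ERKi. The difference was -2.46 (SE 0.27, adjusted p = 6.63e-05) and -1.29 with TMM scaling, called in both. The Tbl1xr1 site with the most NCoR tags, chr3:21952912-21953188 (-123.6 kb), was 350 and 314 without and 136 and 118 with the inhibitor, a difference of -1.38 that was -0.22 and not called with TMM. At the KLA-gained intron 3 site of Hdac9, NCoR was 263 and 256 without and 93.8 and 106 with ERKi (-1.38, SE 0.25, adjusted p = 0.000791), and -0.21 with TMM. Every ERKi library was below every KLA library at these 3 sites by totals. One Tbl1xr1 region, chr3:21949574-21949829, was higher with ERKi, 22 and 26.7 against 4.05 and 7.61 (2.02, adjusted p = 0.0130). That call was lost without NCoR KLA replicate 1 (adjusted p = 0.130) or replicate 2 (adjusted p = 0.0521).

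PGC1β with KLA was called different with ERKi at 0 of 81 member regions by edgeR's quasi-likelihood test, against 0.286% of all regions in either direction. At an unadjusted p under 0.05 there were 14, and DESeq2 also called 0. At the intron 4 site of Hdac9 PGC1β with KLA was 105 and 52.1 in DMSO and 103 and 53.0 with ERKi, which overlapped. At the intron 3 site it was 107 and 83.4 in DMSO and 53.2 and 67.2 with ERKi.

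H3K27ac at the members was next compared in DMSO and with the HDAC3 inhibitor. The tables listed 43 windows of 1000 bp for the members, of which 42 passed the count minimum and some overlap one another. In DMSO, KLA lowered H3K27ac at 18 of the 42 and raised it at 0, against 28.1% lower and 6.73% higher over all windows. Hdac9 had 8 of these, Tbl1xr1 7 and Hdac4 3. With TMM scaling 12 were lower and 1, the Hdac1 promoter, was higher (1.05), against 17.2% and 12.5%. With KLA, RGFP966 raised H3K27ac at 17 of 42 and lowered it at 2, against 26.9% and 9.53% of all windows. With TMM scaling 13 were higher and 5 lower, against 16.1% and 18.9%. All 17 gains were distal (17 of 32 distal windows), and both losses were promoters (2 of 10). Over all windows, 40.1% of distal ones were higher and 0.684% lower, and 6.56% of those within 2 kb of a TSS were higher and 23.2% lower. The gains were at Hdac9 (8 of 12 windows), Tbl1xr1 (6 of 14), Hdac4 (2 of 9) and Hdac7 (1 of 2). The DMSO KLA libraries enter both comparisons, so the values are given side by side.

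The clearest gain was at -3.4 kb from Tbl1xr1, the window chr3:22072765-22073765 around the fifth sequence printed above. H3K27ac was 84.7 and 68.0 in DMSO with Veh, 24 and 24.4 with KLA, and 125 and 93.5 with KLA and RGFP966. The inhibitor libraries lay above both DMSO groups. The difference with KLA was -1.66 (SE 0.28, adjusted p = 3.67e-08) and that with RGFP966 was 2.17 (SE 0.27, adjusted p = 1.31e-13). NCoR at this site was 157 and 227 with Veh and 87.5 and 90.6 with KLA (-1.11, adjusted p = 0.00371). HDAC3 was 219 and 232 against 100 and 160, a difference of -0.82 that did not pass (adjusted p = 0.0584). p300 fell from 143 and 147 to 41.4 and 43.2, its strongest loss at the members (-1.78, adjusted p = 1.50e-06).

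At -141.7 kb from Tbl1xr1, H3K27ac was 217 and 259 in DMSO with Veh, 82.9 and 53.0 with KLA and 231 and 183 with RGFP966 (1.59, SE 0.22). In Hdac4 intron 2 (+99.9 kb) it was 15.8 and 26.2, then 1.30 and 4.21, and with RGFP966 21.7 and 25.7 (3.15, SE 0.56, adjusted p = 1.56e-07). In both windows the RGFP966 libraries were near the Veh libraries and apart from DMSO with KLA. The Hdac9 intron 3 window at +129.5 kb went from 23.3 and 18.3 to 9.71 and 3.37 and was 22.4 and 19.0 with RGFP966 (1.58). At -66.6 kb from Tbl1xr1 the order was another. H3K27ac was 37.4 and 38.4 with Veh, 70.6 and 35.3 with KLA and 177 and 150 with RGFP966 (1.60, SE 0.24, adjusted p = 4.91e-10), so that the inhibitor libraries stood well above both DMSO groups. In Hdac7 intron 1 (-6.9 kb) H3K27ac was 54.0 and 37.5, then 29.1 and 19.4, and with RGFP966 84.3 and 71.8 (1.66, SE 0.28, adjusted p = 3.86e-08). Apart from the -3.4 kb window, these windows were named after their values were seen.

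The Ncor1 promoter went the other way. H3K27ac in the window chr11:62456885-62457885 was 201 and 196 in DMSO with Veh, 299 and 221 with KLA, and 123 and 91.5 with RGFP966. The RGFP966 libraries were below both DMSO groups. The difference with KLA did not pass (0.39, adjusted p = 0.0943), and that with RGFP966 was -1.28 (SE 0.21, adjusted p = 1.72e-08), the strongest loss among the members. At the Hdac4 promoter H3K27ac was 132 and 109 with KLA in DMSO and 65.8 and 54.9 with RGFP966 (-1.0, adjusted p = 8.65e-05), at the edge of the 2-fold limit. The overlapping promoter window of Hdac4 with more tags was 161 and 125 against 105 and 79.3 (-0.63) and was not called. The Hdac2 promoter was 159 and 112 against 79.6 and 59.6 (-0.96), the Hdac1 promoter 174 and 137 against 91.5 and 98.9 (-0.71), and the Hdac3 promoter 31.1 and 34.5 against 27.6 and 20.3 (-0.44, adjusted p = 0.221). None of these 3 passed the 2-fold limit with library totals. With TMM scaling the Hdac2 and Hdac1 windows were called lower (-1.31 and -1.05), and the Hdac3 window was not (-0.79).

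**Figure D4:**
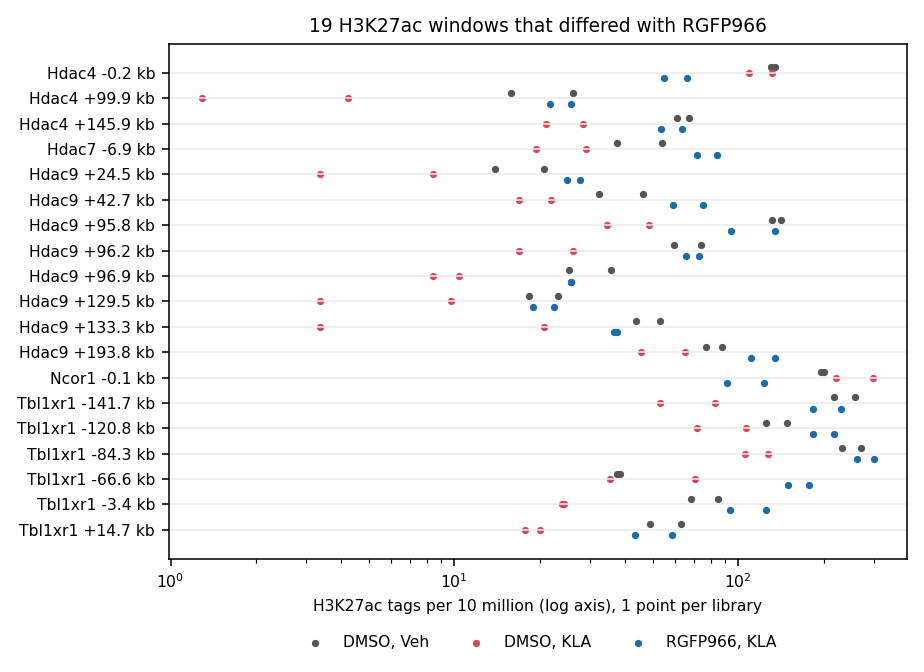
H3K27ac tags per 10 M (log axis) in the 19 windows that differed between RGFP966 and DMSO with KLA, 1 point per library, with the gene and distance from its TSS on the vertical axis. In 17 windows the blue RGFP966 points lie right of the red DMSO KLA points, and at the promoters of Ncor1 and Hdac4 they lie left.

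H3K27ac windows and NCoR sites were matched at 500 bp. Of the 17 NCoR-gained sites 1 had an H3K27ac window, against 1328 of all 12866 NCoR-gained regions. Of the 28 NCoR-lost sites 15 had one, against 4048 of all 9207 NCoR-lost regions. Of those 15, H3K27ac was called lower with KLA in DMSO at 10, against 58.2% at all NCoR-lost regions, and higher with RGFP966 at 9, against 47.1%. Of the 33 member windows with an NCoR region in reach, RGFP966 raised 14, and of the 9 tested without one it raised 3. Over all windows the shares were 30.0% and 18.8%.

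The NKO libraries addressed H3K27ac at these genes without NCoR. H3K27ac tags do not show whether the floxed part of Ncor1 was deleted, and at the Ncor1 promoter the mark in WT was 51.7 and 44.8 with Veh and 49.7 and 46.2 with KLA. In NKO it was 58.3 and 70.2 with Veh and 54.7 and 62.5 with KLA. The NKO libraries were slightly higher, and no difference there passed (0.42 with Veh, adjusted p = 0.410, and 0.28 with KLA, adjusted p = 0.684). Of 31 member regions 23 passed the count minimum. KLA lowered 3 in WT and raised 0, against 3.72% and 6.49% of all regions, and lowered 6 in NKO and raised 0, against 7.96% and 2.75%. With TMM scaling 4 were lower and 0 higher in WT, and likewise 4 and 0 in NKO. Over all 18504 regions 959 were then lower and 895 higher in WT, and 984 and 794 in NKO. Without NKO KLA replicate 2 the count in NKO was 3.

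NKO differed from WT with Veh at 0 of 23 member regions (edgeR), against 1% of all regions in either direction, with 6 at an unadjusted p under 0.05 and 0 by DESeq2. With KLA 1 was higher and 0 lower, against 0.4% and 0.389%. The KLA response differed between the genotypes at 0 regions, against 0.697%, with 2 at an unadjusted p under 0.05 and 0 by DESeq2. The 1 region was in Tbl1xr1 intron 1, chr3:22077298-22077528 (+0.8 kb). WT libraries had 85.1 and 85.1 with Veh and 45.9 and 27.6 with KLA, and NKO libraries 98.8 and 117 with Veh and 77.5 and 75.0 with KLA. With KLA the genotypes did not overlap (1.04, SE 0.24, adjusted p = 0.0144). The call was lost without NKO KLA replicate 1 (adjusted p = 0.107) or 2 (0.0932) or WT KLA replicate 2 (0.249), and the interaction there did not pass (0.70, SE 0.32, adjusted p = 0.303).

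At the Tbl1xr1 promoter H3K27ac was 334 and 303 in WT with Veh and 481 and 501 in NKO with Veh, a difference of 0.63 (adjusted p = 0.000804) that was under 2-fold. The median over all regions was 0.30 in this comparison, and with TMM scaling the promoter's difference was 0.33 (adjusted p = 0.224). At -36.6 kb from Hdac4, next to the site that lost NCoR and HDAC3, H3K27ac was 73.1 and 71.8 in WT with Veh and 19.5 and 18.6 with KLA (-1.92, SE 0.30, adjusted p = 3.87e-06). In NKO it was 57.5 and 59.2 against 31.3 and 23.6 (-1.07, SE 0.29, adjusted p = 0.00675). In NKO the call was lost with TMM (-0.87) and without NKO KLA replicate 2 (-0.90, adjusted p = 0.0913). The groups were apart in both genotypes, and the difference between the 2 responses did not pass (0.85, SE 0.41, adjusted p = 0.345).

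In the Pgc1b experiment the deletion again cannot be read from these tags. KLA lowered H3K27ac at 17 of 42 member windows in Pgc1b flox and raised 0, against 25.6% and 5.22% of all windows, and with TMM scaling it lowered 6 and raised 0, against 13.8% and 9.84%. In Pgc1b flox Cre it lowered 24 and raised 0, against 32.5% and 4.18%, and with TMM 12 and 0, against 14.3% and 10.8%. With Veh the genotypes differed at 0 windows (edgeR), against 0.397% in either direction, with 12 at an unadjusted p under 0.05 and 0 by DESeq2. Without Pgc1b flox Cre Veh replicate 1 it was 1. With KLA 4 windows were lower and 1 higher in Pgc1b flox Cre, against 6.81% and 0.702%, and with TMM 1 and 1, against 1.08% and 1.9%. Without Pgc1b flox Cre KLA replicate 1 or 2 that count of 5 became 8 or 11. The 1 higher window, -592.4 kb from Tbl1xr1, was 10.8 and 6.51 in flox Cre and 1.22 and 4.34 in flox (1.61, SE 0.69, adjusted p = 0.0465), and the call was lost without flox Cre KLA replicate 1 or flox KLA replicate 1.

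The KLA response was lower in Pgc1b flox Cre at 5 windows and higher at 0, against 4.6% and 0.77%, and with TMM at 2 and 0, against 2.31% and 1.4%. Of the 5 windows, 3 were overlapping ones at the Tbl1xr1 promoter. In the window chr3:22076202-22077202, H3K27ac was 561 and 612 in flox with Veh, 480 and 478 in flox with KLA, 563 and 538 in flox Cre with Veh and 181 and 178 in flox Cre with KLA. The genotypes were alike in range with Veh and far apart with KLA. The difference with KLA was -1.42 (SE 0.09, adjusted p = 2.19e-51) and that of the responses was -1.33 (SE 0.12, adjusted p = 1.16e-26), which with TMM was -1.14 and still called. In the other 2 windows there the responses differed by -1.19 and -1.17, and the second was not called with TMM.

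The Ncor1 promoter in the same libraries was 358 and 436 in flox with Veh, 395 and 390 in flox with KLA, 352 and 291 in flox Cre with Veh and 256 and 252 in flox Cre with KLA. With KLA the flox Cre libraries were the lower ones (-0.63, SE 0.09, adjusted p = 1.27e-10), which is under 2-fold, and with TMM it was -0.23. At the Hdac3 promoter H3K27ac was 57.2 and 52.7, then 56.3 and 76.3 in flox, and 53.6 and 69.6, then 41.9 and 28.7 in flox Cre. The responses differed by -1.08 (SE 0.33, adjusted p = 0.00909), which was lost with TMM (-0.89) and without flox Cre KLA replicate 2, flox Cre Veh replicate 2 or flox KLA replicate 2.

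The DMSO and the Pgc1b flox libraries are separate experiments on the same windows. Of the 42 windows tested in both, KLA differences had the same sign in 36, and 12 were called lower in both, which is 12 of the 18 in DMSO and 12 of the 17 in Pgc1b flox. Over all 24403 windows tested in both, 83.1% had the same sign, and the shares called lower in both were 68.5% of those lower in DMSO and 76.0% of those lower in Pgc1b flox. At -141.7 kb from Tbl1xr1, for example, H3K27ac was 181 and 179 in Pgc1b flox with Veh and 70.4 and 86.8 with KLA.

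**Figure D5:**
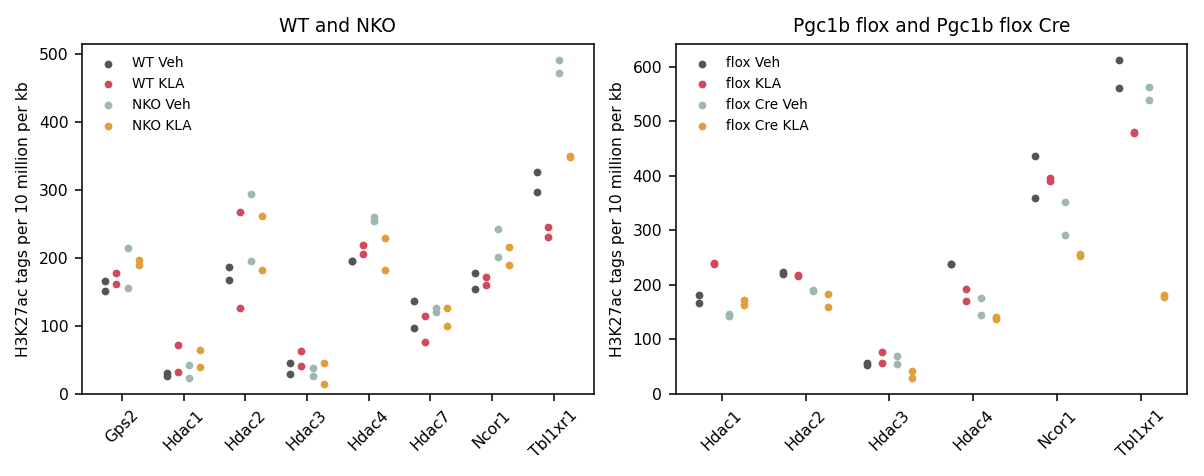
H3K27ac tags per 10 M per kb at the TSS region of each gene (most tags within 2 kb), 1 point per library, for WT and NKO (left) and Pgc1b flox and Pgc1b flox Cre (right). Tbl1xr1 stands highest in most groups, Hdac3 and Hdac1 lie low on the left, and on the right the 2 flox Cre KLA libraries of Tbl1xr1 (181 and 178) fall far below the other 6.

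The levels of H3K27ac at the TSS were ranked per kb. In WT with Veh it was 326 and 296 tags per 10 M per kb at Tbl1xr1, 196 and 195 at Hdac4, 167 and 187 at Hdac2, 178 and 155 at Ncor1, 166 and 151 at Gps2 and 137 and 96.1 at Hdac7. Hdac3 and Hdac1 were lowest, at 28.4 and 45.8 and at 25.5 and 30.9, and overlapped each other. Hdac2, Ncor1 and Gps2 overlapped in that order, and the other neighbours did not. In DMSO with Veh the order was Tbl1xr1 (534 and 439), Ncor1 (201 and 196), Hdac4 (154 and 159), Hdac2 (129 and 131), Hdac1 (80.6 and 123) and Hdac3 (34.1 and 39.2), with no overlap between neighbours. With KLA in DMSO, Tbl1xr1 (296 and 228) and Ncor1 (299 and 221) overlapped. Only Tbl1xr1 had a TSS region in all 9 tables of WT cells with Veh and KLA. Over those 36 libraries the TSS region most like it, among 1443 genes and after centring within each table, was that of the tubulin gene Tubb2a (r = 0.89).

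In bone marrow cells on the way to osteoclasts, the members had 29 p300 and 21 ERK1 regions. p300 was called higher at day 4 than at day 0 at 21 and lower at 0 of 29, against 62.2% and 0.248% of all regions, and with TMM scaling at 1 and 0, against 8.8% and 3.83%. The 21 were 14 of 17 at Tbl1xr1, 6 of 8 at Hdac4 and 1 of 1 at Hdac9. Without p300 day 4 replicate 1 or 2 the count was 2 for either. The clearest was chr3:21797061-21797314 (-279.5 kb from Tbl1xr1), with 0 and 0 tags at day 0 and 24.4 and 26.1 tags per 10 M at day 4, at least 13.5-fold higher over a floor of 3 tags, and it was called with TMM too. ERK1 was called at 0 of 21 regions (edgeR), against 2.35% in either direction, with 12 at an unadjusted p under 0.05 and 0 by DESeq2. Without ERK1 day 0 replicate 2 the count was 1. The second ERK1 day 4 library is described with a replicate number other than that in its title. Its date code is not that of the other ERK1 day libraries, and its label lacks the NCoRWT of theirs. The part of these label differences in the spread was not tested. Osteoclast markers had a TSS region for 3 of 6 genes in both day tables, and their summed p300 level ranged from 171 to 1491 tags per 10 M per kb over the groups, beside 1163 to 1879 for the macrophage markers (7 of 8). One of 4 neutrophil markers had a p300 region (61.3 to 104), and its part in these counts was not tested.

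Other genes of the same machinery were counted as lists. Of 8 NCoR regions at other deacetylases (such as Hdac5 and Sirt1), 3 rose and 0 fell with KLA. Of 75 at acetyltransferases and coactivators (such as Crebbp and Ncoa2), 19 rose and 12 fell. Over all NCoR regions 23.4% rose and 16.7% fell. For HDAC3 the counts were 7 and 0 of 11 and 14 and 5 of 59, against 27.5% and 11.3% of all its regions. RGFP966 raised H3K27ac at 1 and lowered it at 0 of 4 windows of the first list, and at 7 and 2 of 22 of the second. Over all windows the shares were 26.9% and 9.53%. The lists were counted with library totals only.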

How the data were processed

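NCoR, HDAC3, PGC1β, ERK1, p300, p65, Fosl2, PU.1 and H3K27ac were profiled by ChIP-seq in 100 samples (50 groups of 2 replicates), of which 30 inputs were not analysed here. The authors mapped reads to mm10 with Bowtie2, called peaks with HOMER, kept factor peaks reproducible between replicates, merged them, and deposited raw tag counts per region with at most 3 tags per position. H3K27ac was counted by the authors over open chromatin regions. Tool versions are not given in the sources used here. Merged regions were called on these same libraries, so a region near 0 in one group was found through another. The limit on tags per position lowers the highest peaks most.

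From the 15 count tables, tags were scaled to 10 M of the library totals in the file headers (4.30 to 21.5 M). Differences were fitted over all regions of a table with edgeR 4.0.16 (R 4.3.3, quasi-likelihood F-test, totals as library sizes), keeping regions with at least 4 tags (factors) or 16 tags (H3K27ac) in 1 library, with Benjamini-Hochberg adjustment at 0.05 and a 2-fold minimum. Depth sets the precision, and counting intervals (95%) and the floor of 3 tags cover counting error only. Groups came from the sample labels. Replicate numbers were not treated as pairs, since deviations of same-numbered libraries correlated at -0.0266 to 0.0878 over 31 pairs of groups. The closest pair of replicates still differed beyond counting noise (chi-square per region 1.36), so none was merged.

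Regions were named by a rule: at each gene the TSS region (within 2 kb) and the distal region with most tags, and, per comparison, the call of lowest p among regions that rose and among those that fell. Regions within 500 bp were treated as 1 site. Others were named after their values were seen. The alternatives tried were TMM and DESeq2 size factors, the DESeq2 1.42.0 Wald test, other filters, no fold minimum, gene bodies with 2 kb, a replicate block and leaving out each library. A list of other corepressor subunits is not reported here. The members and lists were chosen with earlier results of these data known. The scripts were tested on simulated data.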

Additional observations from a re-analysis of the deposited data

Results flagged for a closer look

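In 5 windows the H3K27ac response to KLA was unequal in the Pgc1b genotypes by the interaction term of edgeR's quasi-likelihood fit, all lower in Pgc1b flox Cre. At the Tbl1xr1 promoter the difference of the log2 responses was -1.33 (SE 0.12, adjusted p = 1.16e-26), -1.19 (SE 0.12, adjusted p = 2.47e-20) and -1.17 (SE 0.20, adjusted p = 3.45e-07) in 3 overlapping windows, and at -267.9 kb from Tbl1xr1 it was -1.16 (SE 0.24, adjusted p = 3.78e-05). At the Hdac3 promoter it was -1.08 (SE 0.33, adjusted p = 0.00909). With TMM scaling the first 2 were still called, at -1.14 and -1.01, and the others were not, at -0.98, -0.97 and -0.89.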

How the results depend on the processing

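The counts of called regions are given here. With TMM factors they became 10 for NCoR with ERKi, 17 for Fosl2, 21 for PU.1, 1 for p300 at day 4 against day 0, 6 and 12 for the KLA response of H3K27ac in Pgc1b flox and flox Cre, 2 for flox Cre against flox with KLA and 2 for the difference of those responses. With DESeq2 size factors in edgeR these 8 were 9, 20, 21, 2, 6, 12, 2 and 2. With the DESeq2 Wald test they were 11, 21, 21, 0, 6, 12, 1 and 2, and the KLA response of H3K27ac gave 3 in NKO and 11 in DMSO. Taking regions by gene body with 2 kb gave 23 for NCoR, 18 for HDAC3, 30 for NCoR with ERKi, 15 for PGC1β, 6 for PGC1β in DMSO, 52 for p300, 7 for Fosl2, 26 for PU.1, 1 for ERK1 and 7 for p300 at day 4 against day 0, 2 for the KLA response in NKO and 3 for flox Cre against flox with KLA. Gene bodies hold fewer regions, 56 in place of 98 for NCoR. With no fold minimum the counts were 72 for PU.1, 1 and 2 for NKO against WT with Veh and with KLA, 30 for the KLA response in DMSO, 33 for RGFP966, 29 for that in Pgc1b flox, 4 and 23 for flox Cre against flox with Veh and with KLA, and 10 for the difference of those responses. The replicate block moved 1 of 25 counts by over 1.5 times, Fosl2 to 2, and weakened 3 of 80 named values. The other filters moved 0 of 25. The cause of these changes was not tested, beyond the fewer regions or dropped limit that the settings themselves bring.

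Leaving out 1 library at a time, with the lone library assumed to vary like the other groups, gave 18 to 51 calls for NCoR, 12 to 37 for HDAC3, 30 to 59 for NCoR with ERKi, 9 to 33 for PGC1β, 6 to 11 for PGC1β in DMSO, 1 to 4 for ERK1, 56 to 81 for p300, 11 to 51 for p65, 0 to 34 for Fosl2, 45 to 48 for PU.1, 0 to 1 for ERK1 and 2 to 25 for p300 at day 4 against day 0. For H3K27ac it gave 2 to 4 in WT, 3 to 4 in NKO, 0 to 1 for NKO against WT with KLA, 16 to 25 in DMSO, 19 to 23 for RGFP966, 13 to 16 in Pgc1b flox, 22 to 25 in flox Cre, 0 to 1 and 6 to 11 for flox Cre against flox with Veh and with KLA, and 4 to 6 for the difference of responses. Of 812 alternatives for 80 named values, 664 kept direction and side of the threshold and 3 reversed: at -123.6 kb from Tbl1xr1, p300 at day 4 against day 0 was -0.12 with TMM, -0.035 with DESeq2 size factors and -0.15 with the DESeq2 Wald test. With 2 libraries per group, depth limits regions near 0 tags most.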
